A study of Mus musculus with 8 samples.

Results

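Transcripts of 10 genes that drive, mark or accompany the epithelial-mesenchymal transition (EMT) were examined in mSCC-20 cells, a line from a cutaneous squamous cell carcinoma of the FVB/N mouse strain. The genes were taken by symbol from a list of EMT transcription factors, EMT markers and epithelial splicing regulators. No rule on their measured values was applied, but earlier results of these data were known when the list was chosen. They are Snai1, Snai2, Twist1, Twist2, Zeb1, Zeb2, Vim, Fn1, Esrp1 and Esrp2. These are 10 of the 30139 gene names on the array, and they are measured by 13 probes, with 3 for Zeb2, 2 for Esrp1 and 1 for each of the other 8 genes. A probe that the files name Sip1, an older symbol of Zeb2, belongs by its accession to Gemin2 and was left out.

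Cells received miR-193b-3p (label miR_193b, 2 arrays), miR-365a-3p (label miR_365a, 2 arrays) or a control microRNA (label miR_NC, here NC, 4 arrays). Each sample's total RNA was run in 1 colour (Cy3) on an Agilent mouse expression array. The labels attach an amount of 0.2 µg to both miR-193b arrays and to NC replicates 1 and 2, and of 0.6 µg to both miR-365a arrays and to NC replicates 3 and 4, without saying what was weighed. Each microRNA was set against the NC arrays of its own amount label, called the 0.2 set and the 0.6 set. Slide 1 held NC replicate 1 with miR-193b replicate 1, slides 2 and 3 the other NC and miR-193b array of that set, and slide 4 all arrays of the 0.6 set. The sets also differ in slide and scan, so these and the amount cannot be told apart, and no level is compared between sets. All cells are of 1 line, so a change shared by other tumours was not examined. Nothing in the labels ties replicates to separate cultures or to one, and the p-values therefore cover the spread between arrays, which may be technical.

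Of 43020 gene spots per array, 0 were saturated, and 51.4% to 54.6% (0.2 set) or 59.0% to 62.1% (0.6 set) were well above background. The 2 arrays per group limit the precision. All 14 squamous keratinocyte markers, Krt5 and Krt14 among them, were well above background on all 8 arrays. The fibroblast genes Dcn, Lum, Col3a1 and Dpt, the leukocyte gene Lyz2, the endothelial genes Cdh5, Tek and Emcn and the melanocyte genes Dct and Tyrp1 were well above background on none. Other genes of these lists were, among them Pdgfra (fibroblast), Cd3e, Itgam, Csf1r and Cd68 (leukocyte), Kdr and Tie1 (endothelial) and Mitf and Mlana (melanocyte) on all 8 arrays. The endothelial gene Pecam1 was on 7 arrays and the melanocyte genes Tyr and Pmel on 5 each. The fibroblast genes Col1a2 and Thy1 were on 4 each, and Col1a1 and Pdgfrb on 2 each. The leukocyte genes Cd79a, Ptprc and Adgre1 were on 4, 2 and 1. Over the 8 arrays 4 to 7 of 8 leukocyte, 2 to 3 of 6 endothelial and 2 to 4 of 6 melanocyte markers were well above background. Fibroblast markers were well above background for 4 to 5 of 9 genes after miR-365a, against 3 of 9 in NC of the 0.6 set, with summed levels of 0.125 to 0.221 and 0.151 to 0.306 in units of the 75th percentile signal. The summed leukocyte level was 9.21 to 10.2 after miR-365a, against 6.37 to 8.21 in NC. On the log2 scale around the 75th percentile, Csf1r was at 1.74 and 1.54 after miR-365a, against -0.53 and 0.02 in NC. Cd68 was at 0.47 and 0.67, against -0.18 and 0.24, and Cd3e at -1.26 and -0.99, against -1.49 and -1.27. Itgam was no higher, at 2.0 and 2.37, against 2.14 and 2.47. The part of these levels in the results below was not tested.

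In EMT an epithelial cell gives up its junctions and apical-basal polarity for a motile, matrix-producing state. SNAIL proteins (Snai1, Snai2) and ZEB proteins (Zeb1, Zeb2) are zinc-finger repressors that bind E-box motifs in epithelial genes such as the E-cadherin gene Cdh1, while TWIST proteins (Twist1, Twist2) are basic helix-loop-helix factors. Vim encodes the intermediate filament vimentin and Fn1 the matrix glycoprotein fibronectin, both classic mesenchymal markers. ESRP1 and ESRP2 are RNA-binding proteins that keep the epithelial exon choice in transcripts such as Fgfr2 and Cd44. In the skin, Snai2 and Twist2 are also expressed outside EMT, in keratinocytes and in dermal cells.

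The transfected microRNAs have different seeds (bases 2 to 8, in capitals), so a transcript with a site for one need not have a site for the other. Both mature sequences are shown because the seed is what a target must pair with. They are RefSeq's, on build GRCm38.p6, from chr16:13449570-13449591 on the plus strand for miR-193b-3p, and for miR-365-3p from chr11:79726467-79726488 and chr16:13453895-13453916, both on the plus strand.
mmu-miR-193b-3p: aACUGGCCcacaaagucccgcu
mmu-miR-365-3p: uAAUGCCCcuaaaaauccuuau
The 7 letters complementary to the miR-193b seed (GGCCAGT) are in 116 of 39429 array probes (0.294%), and those complementary to the miR-365 seed (GGGCATT) in 123 (0.312%). Neither is in any of the 13 probes of the EMT genes, which says only that these letters are not within the probes.

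Esrp2, Twist2 and Zeb2 were higher after miR-365a than in NC and passed the test across all genes, and no other gene of the 10 did. After miR-193b none of the 10 passed, with Esrp2 the nearest at 1.71-fold. The differences below are log2 differences from a limma fit over 17856 genes, with the standard error of the fit (2 arrays against 2), and a gene was called at a Benjamini-Hochberg adjusted p under 0.05. A level is the log2 processed signal minus the 75th percentile of its array, so that 0 is the 75th percentile, and levels of different probes are not comparable. All 10 genes entered the test, but Zeb2 entered only through the miR-365a arrays and so had to differ there. Vim entered only through the 0.2 set.

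**Figure D1:**
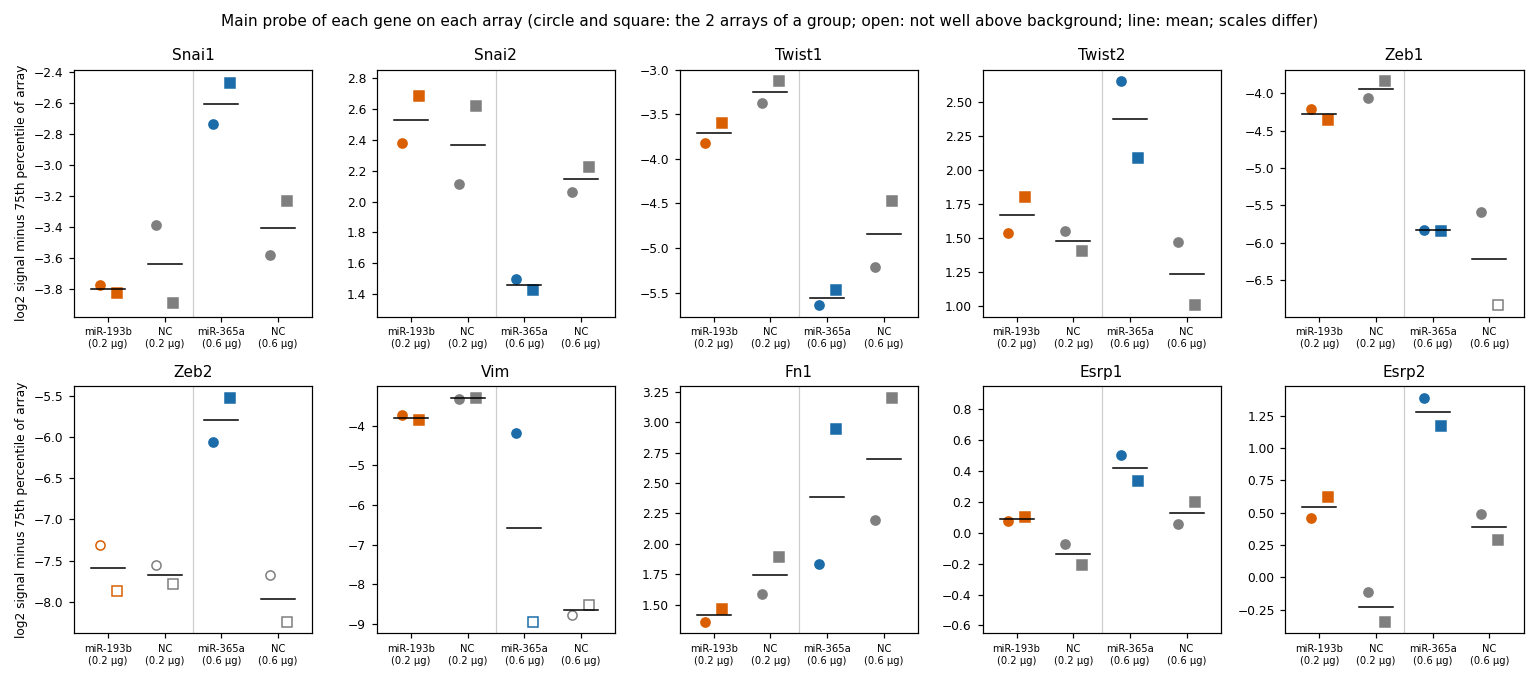
Level of the main probe of each gene on each array (log2 signal minus the 75th percentile of the array), with miR-193b left of NC in the 0.2 µg set and miR-365a left of NC in the 0.6 µg set. Circles and squares are the 2 arrays of a group, the line is their mean, and open symbols are not well above background. Esrp2 lies above NC on both arrays of either microRNA, and Zeb2 is well above background on the miR-365a arrays alone.

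Snai1, the SNAIL gene most often tied to the start of EMT, had levels of -2.74 and -2.47 after miR-365a, against -3.58 and -3.23 in NC. Both miR-365a arrays lay above both NC arrays, yet the difference of 0.80 ± 0.21 (1.74-fold) fell just short of the threshold (adjusted p = 0.0526). After miR-193b the levels were -3.77 and -3.83, against -3.39 and -3.89 in NC. These groups overlapped, and the difference was -0.16 ± 0.21 (adjusted p = 0.689).

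Snai2, its paralogue, lay below NC after miR-365a. Its levels were 1.495 and 1.43 after miR-365a, against 2.06 and 2.23 in NC, with both miR-365a arrays below both NC arrays. The difference was -0.68 ± 0.20 and was not called (adjusted p = 0.0680). After miR-193b it had levels of 2.38 and 2.68, against 2.11 and 2.62 in NC, overlapping groups with a difference of 0.17 ± 0.20 (adjusted p = 0.656). The Snai1 probe lies on mm9 at chr2:167368073-167368132 and the Snai2 probe at chr16:14709361-14709420, both on the plus strand. Both missed calls after miR-365a turned into calls with the fit's variance trended and robust (adjusted p = 0.0460 for Snai1 and 0.0302 for Snai2), and also without NC replicate 1 (0.0365 and 0.0389) or without NC replicate 2, libraries of the 0.2 set that shape the shared spread and not these values. With slide as a random block both were called (0.0333 and 0.0344). Snai2 was also called with slide as a fixed block (0.0401) and with its own set alone (0.0402). Neither was called with no filter on dim probes (0.133 and 0.165), and Snai1 was not called with its own set alone (0.0589). Without 1 array of the 0.6 set the differences were 0.63 to 0.98 for Snai1 and -0.77 to -0.60 for Snai2. Of the 18 alternatives, 8 called Snai1 and 9 called Snai2, and none of those left out an array of the 0.6 set.

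Twist2 (Dermo1), a factor known from dermal mesenchyme, rose after miR-365a. It had levels of 2.65 and 2.09 after miR-365a, against 1.47 and 1.01 in NC, a difference of 1.13 ± 0.24 or 2.19-fold (adjusted p = 0.0289). The arrays did not overlap, and the gap of 0.62 between the groups was close to the spread within them. Leaving out any 1 of the 4 arrays of the set ended the call, with differences of 0.85 to 1.41 and adjusted p from 0.0524 to 0.126, as did the fit on that set alone (adjusted p = 0.0622), slide as a fixed block (0.0620) and no filter on dim probes (0.0809). After miR-193b Twist2 had levels of 1.54 and 1.80, against 1.55 and 1.40 in NC. The difference of 0.19 ± 0.24 was not called (adjusted p = 0.668), and within slides it was -0.01 (slide 1) and 0.40 (slides 2 and 3). The probe lies on mm9 at chr1:93744519-93744577 on the plus strand.

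Twist1, the paralogue of Twist2 and a classic EMT inducer, was not called after either microRNA, and its values lay below NC after both. Levels were -5.64 and -5.47 after miR-365a, against -5.21 and -4.47 in NC, a difference of -0.71 ± 0.26 (adjusted p = 0.114). After miR-193b they were -3.82 and -3.59, against -3.37 and -3.13 in NC, a difference of -0.46 ± 0.26 (adjusted p = 0.350). No arrays overlapped in either comparison. The miR-193b difference was -0.45 within slide 1 and -0.47 across slides 2 and 3.

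Zeb2 (Sip1), a repressor of the E-cadherin gene, was well above background on both miR-365a arrays and on no other array. Its processed signal was 27.2 and 30.9 after miR-365a, against 8.02 and 4.64 in NC. Because NC gives only a bound, the level after miR-365a is stated as at least 1.44-fold higher on the processed signals. This sets the miR-365a mean against the higher of the dimmest signal well above background and the probe's own signal on each NC array. The bound carries no error and does not hold under other background corrections. The fitted difference was 2.17 ± 0.30 (adjusted p = 0.00835). The value fell to 0.32 with the deposited log2 values (adjusted p = 0.0742) and to 0.33 with normexp background correction (adjusted p = 0.0591), and the call also ended without miR-365a replicate 2 (adjusted p = 0.0538). In the miR-193b comparison the probe was not well above background in either group and no fold is given.

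The rise of Zeb2 rests on 1 of 3 probes. The main probe was the brightest by its mean over all 8 arrays, those of miR-365a included. Its choice, like its entry into the test, therefore depended on its rise. The main probe lies on mm9 at chr2:44842774-44842833 on the minus strand. A second probe 2.74 kb further toward the transcript's end and another 123.1 kb toward its start were not well above background on any of the 8 arrays, with signals of 3.25 to 8.41 and 3.54 to 10.75 (arbitrary units), and were not tested. The position of the last of these is shown because it bears on which transcripts it can report. All 60 of its bases lie 176 to 117 bases before a Zeb2 transcription start that RefSeq places on GRCm38.p6, within the 250 bases upstream of it (chr2:45110278-45110527, minus strand, probe in capitals), so a transcript that begins at that start does not hold them.
Zeb2 upstream window: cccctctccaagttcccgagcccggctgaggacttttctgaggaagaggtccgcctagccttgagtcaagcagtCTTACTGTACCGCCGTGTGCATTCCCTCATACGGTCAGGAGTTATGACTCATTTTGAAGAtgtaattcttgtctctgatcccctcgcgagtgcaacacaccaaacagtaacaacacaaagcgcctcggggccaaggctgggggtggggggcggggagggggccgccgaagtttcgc
The probe toward the transcript's end does not lie in such a window and was dim as well.

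Zeb1, the other ZEB repressor, gave weak signals near the detection limit. After miR-365a its levels were -5.83 and -5.84, against -5.59 and -6.84 in NC, where NC replicate 4 was not well above background. The difference was 0.38 ± 0.37 (adjusted p = 0.572), and 1 library decided it: it was 1.01 without NC replicate 3 (adjusted p = 0.0447) and -0.25 without NC replicate 4. After miR-193b the levels were -4.21 and -4.35, against -4.06 and -3.83 in NC, a difference of -0.33 ± 0.37 (adjusted p = 0.630) with no overlap. That standard error rests on the spread of all arrays, and with the 0.2 set alone it was 0.15 (adjusted p = 0.360).

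**Figure D2:**
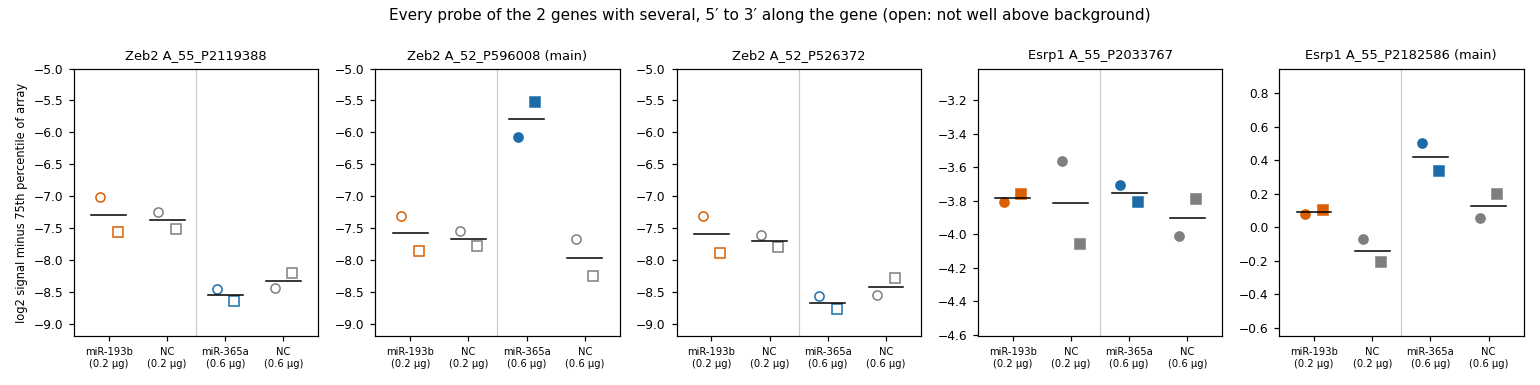
Level of all 3 Zeb2 probes and both Esrp1 probes on each array, ordered from the start to the end of each gene, with the groups as in the plot of levels and a shared scale for Zeb2. The middle Zeb2 probe alone has filled symbols, on both miR-365a arrays, and the outer probes stay between -8.77 and -7.02.

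Vim did not pass in either comparison. In the 0.2 set it was well above background on all 4 arrays, with levels of -3.73 and -3.86 after miR-193b, against -3.32 and -3.30 in NC, a difference of -0.49 ± 1.35 (adjusted p = 0.858). In the 0.6 set miR-365a replicate 1 alone was well above background, with a signal of 100.3, against 2.86 on the other miR-365a array and 3.77 and 3.83 in NC. That single array sets the fitted difference of 2.07 ± 1.35 (adjusted p = 0.365): without it the difference was -0.32, and without miR-365a replicate 2 it was 4.46 (adjusted p = 0.00975). It also widens the standard error in both comparisons, since all arrays share 1 estimate of the spread. With the 0.2 set alone the miR-193b difference was -0.49 ± 0.13 (limma, adjusted p = 0.204). No bound is given, as the miR-365a arrays disagree.

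Fn1 had high signals throughout and no call. Levels were 1.36 and 1.47 after miR-193b, against 1.59 and 1.90 in NC, not overlapping but only -0.33 ± 0.44 apart (adjusted p = 0.692). That standard error rests on the spread of all arrays, and with the 0.2 set alone it was 0.17 (adjusted p = 0.394). After miR-365a they were 1.83 and 2.94, against 2.20 and 3.20 in NC. The replicates within each group differed by about 1 on the log2 scale, more than the difference of -0.31 ± 0.44 (adjusted p = 0.715). The 95% interval of the miR-365a difference ran from -1.38 to 0.76, so a change of either sign within it was not excluded.

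Esrp2, the splicing regulator, rose after miR-365a and lay above NC after both microRNAs. Its levels were 1.39 and 1.17 after miR-365a, against 0.49 and 0.29 in NC, a difference of 0.89 ± 0.15 or 1.85-fold (adjusted p = 0.0157). After miR-193b they were 0.46 and 0.62, against -0.12 and -0.35 in NC, a difference of 0.77 ± 0.15 or 1.71-fold with a 95% interval of 0.40 to 1.14. This narrowly missed the threshold (adjusted p = 0.0553). It passed in 4 of the 18 alternatives: normexp background correction (adjusted p = 0.0209), the deposited log2 values (0.0252), only probes well above background on all 8 arrays (0.0311) and trended robust variance (0.0242). Among those it did not pass were no filter on dim probes (0.182) and its own set alone (0.1615). It also did not pass with slide as a fixed block, where the effect of 0.58 came from slide 1 alone, 1 array against 1. The miR-193b difference was 0.58 within slide 1 and 0.97 across slides 2 and 3. After miR-365a the call ended without any 1 of the 4 arrays of the 0.6 set, with differences of 0.78 to 1.00 and adjusted p from 0.0571 to 0.0934, and with no filter on dim probes (0.0548). The probe lies on mm9 at chr8:108655089-108655148 on the minus strand.

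Esrp1, its paralogue, was not called. Levels of the main probe were 0.50 and 0.34 after miR-365a, against 0.06 and 0.20 in NC, a difference of 0.29 ± 0.12 (adjusted p = 0.166). After miR-193b they were 0.08 and 0.10, against -0.07 and -0.21 in NC, a difference of 0.23 ± 0.12 (adjusted p = 0.329). Both microRNA groups lay above their NC arrays on this probe. The dimmer second probe, 24.42 kb away on mm9, gave 0.14 ± 0.19 after miR-365a and 0.03 ± 0.19 after miR-193b. Neither probe tells which splice form was present, so the activity of the splicing regulators was not measured here.

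**Figure D3:**
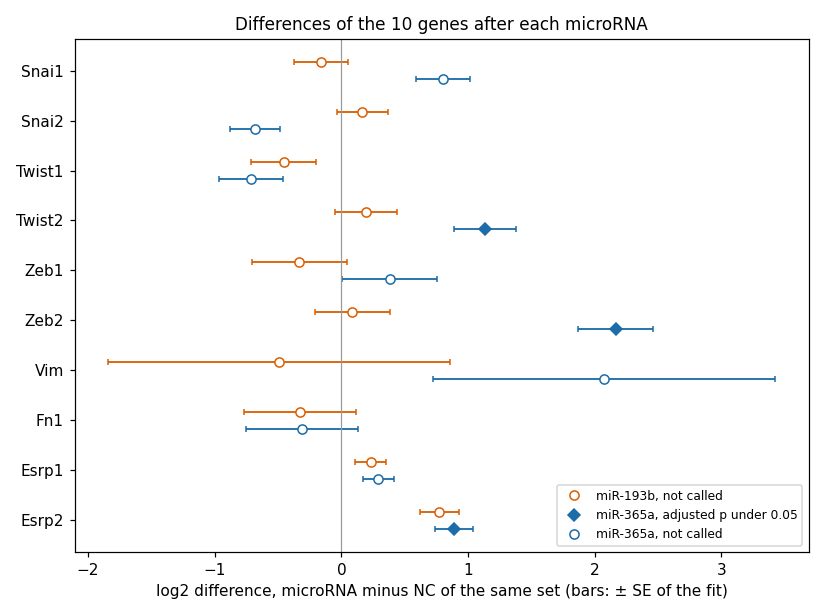
Log2 difference of each gene after miR-193b and after miR-365a, each against NC of the same set (points), with the standard error of the fit (bars, 2 arrays against 2). Filled diamonds passed an adjusted p under 0.05: Twist2, Zeb2 and Esrp2 after miR-365a, at 1.13, 2.17 and 0.89. Zeb2 was not well above background in NC, so 2.17 is no measured size. It entered the test only through the miR-365a arrays and so had to differ there.

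After miR-365a 3 of the 10 genes were called, all higher, where 15.8% of all 17856 genes were called and 7.81% were called higher. Since Zeb2 passed the filter only through its rise, nothing is drawn from that count. After miR-193b 0 of 10 were called by limma (1 at an unadjusted p under 0.05), against 2.92% of all genes. The microRNA and NC arrays were fully apart for 7 of 10 genes after miR-365a, against 61.6% of all genes, and for 6 of 10 after miR-193b, against 52.5%, shares near the background.

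Whether the microRNAs differed in their effects was tested directly, as the miR-365a effect minus the miR-193b effect. None of the 10 passed (4 at an unadjusted p under 0.05), against 3.56% of all genes. Zeb2 was not well above background on any of the 6 NC and miR-193b arrays. Its fitted value of 2.08 ± 0.42 (adjusted p = 0.0537) is therefore no measured difference, and it was 0.24 with normexp and 0.19 with the deposited values. Of the genes well above background on all 8 arrays, Snai1 differed by 0.96 ± 0.30 (adjusted p = 0.146), Snai2 at -0.85 ± 0.28 (0.165) and Twist2 at 0.94 ± 0.34 (0.200). The effects on Esrp2 differed by 0.11 ± 0.22, with a 95% interval of -0.41 to 0.64 (adjusted p = 0.806), so effects up to that far apart cannot be told from equal ones. This contrast runs across the sets, and so across slides and scans.

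Promoter windows were searched for E-boxes, the motif that these factors bind. The letters CAGGTG or CACCTG, the same site on either strand, occur in the 250 bases before the start of 17.2% of 32851 RefSeq promoters, and CANNTG, which includes them, in 66.2%. Windows of Snai1, Twist1, Twist2, Vim and Zeb2 (4 starts) were searched. The single match of either motif was 1 CACCTG in Snai1 (GRCm38.p6, chr2:167537945-167538194, plus strand, match in capitals). The windows of Snai1 and Twist2 are shown because these genes lay above NC after miR-365a, the Twist2 window (chr1:91801211-91801460, plus strand) with no match.
Snai1 upstream window: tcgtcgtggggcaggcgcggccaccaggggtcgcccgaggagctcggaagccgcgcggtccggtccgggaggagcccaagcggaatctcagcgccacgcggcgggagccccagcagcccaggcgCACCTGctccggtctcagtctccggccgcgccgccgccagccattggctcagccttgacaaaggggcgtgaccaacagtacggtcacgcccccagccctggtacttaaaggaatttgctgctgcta
Twist2 upstream window: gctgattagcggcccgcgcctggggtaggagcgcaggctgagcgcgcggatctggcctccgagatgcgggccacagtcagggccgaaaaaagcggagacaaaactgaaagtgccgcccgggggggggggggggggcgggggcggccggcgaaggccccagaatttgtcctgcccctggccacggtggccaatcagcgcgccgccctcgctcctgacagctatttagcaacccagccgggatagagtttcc
A match is a string of letters and no measured binding, and the lack of one says only that these letters are not in the window.

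Genes around the 10 were described from 10 lists, against a median log2 difference over all genes tested of 0.02 after miR-365a and 0.05 after miR-193b. Beside the counts below stand the shares over all genes given above, 15.8% called (7.81% called higher) after miR-365a and 2.92% called after miR-193b. Epithelial genes reported as repressed by SNAIL or ZEB factors had a median of 0.19 after miR-365a, and 5 of 26 tested rose, 0 fell and 21 were not called. Marveld2, encoding the tight junction protein tricellulin, rose by 1.06 ± 0.12 (levels of 0.09 and 0.08 after miR-365a, against -1.06 and -0.88 in NC). The cingulin gene Cgn rose by 0.86 ± 0.12, the membrane protease gene Prss8 by 0.97 ± 0.16 and the keratin gene Krt8 by 0.61 ± 0.15. Spint1, a protease inhibitor gene, rose after miR-365a as well (0.67, adjusted p = 0.0481), although its second probe was not called there (0.45, adjusted p = 0.175 over all probes), and fell after miR-193b (-1.21 ± 0.17, adjusted p = 0.0301), the single call in this list of median 0.06 after miR-193b. Its levels after miR-193b were -3.04 and -3.15, against -1.75 and -2.01 in NC.

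Among the other EMT transcription factors, 1 of 17 rose, 2 fell and 14 were not called after miR-365a, with a median of -0.08. Hmga2, encoding a chromatin protein that acts upstream of Snai1 and Twist1 in TGF-beta-driven EMT, had levels of -0.68 and 0.02 after miR-365a, against 1.89 and 2.63 in NC, and fell by 2.60 ± 0.36 (adjusted p = 0.00881), with a second probe at -2.39. Id3, an inhibitor of basic helix-loop-helix factors, rose by 0.94 ± 0.14. After miR-193b 0 of 17 were called, 3 had an unadjusted p under 0.05 in limma, and the median was -0.13. Of 13 guardians of the epithelial state, Elf3 rose (0.83 ± 0.14), Klf4 fell (-0.91 ± 0.16) and 11 were not called after miR-365a, with a median of -0.33. After miR-193b Grhl1, of the grainyhead family, rose (0.83 ± 0.11, adjusted p = 0.0238), and 12 were not called, with a median of 0.19.

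The mesenchymal markers moved both ways. Of 19 tested after miR-365a, 1 rose, 1 fell and 17 were not called, with a median of -0.11. Pdgfrb, a receptor gene also among the fibroblast markers, was at least 2.19-fold higher after miR-365a on the processed signals (adjusted p = 0.00898). It was not well above background on any NC or miR-193b array, so it entered the test through the miR-365a arrays alone and had to differ there, and its call adds nothing to the count. After miR-193b the counts were 1, 1 and 17 with a median of 0.08. Axl, a receptor tyrosine kinase gene, had levels of 2.25 and 2.26 after miR-193b, against 3.90 and 4.00 in NC, and fell by 1.69 ± 0.10 (adjusted p = 0.00967). Tgfbi, a matrix gene induced by TGF-beta, rose by 1.21 ± 0.18.

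Of 21 other splicing regulators 0 were called after miR-193b (limma, 1 at an unadjusted p under 0.05, median 0.04), and Hnrnpk alone fell after miR-365a (-0.55 ± 0.14, adjusted p = 0.0439, median of the list -0.12). Among 18 genes whose transcripts are reported ESRP targets, Cd44, the hyaluronan receptor gene, fell after miR-365a (-1.71 ± 0.23, adjusted p = 0.00835), with levels of 1.65 and 1.62, against 2.98 and 3.72 in NC. The other 3 Cd44 probes lay at -1.02, -0.75 and -0.53, and the first of these was called. Grhl1, counted above, was the single call of this list after miR-193b. The medians were 0.02 after miR-365a and 0.16 after miR-193b.

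Of 27 cofactors and stability regulators of SNAIL and ZEB proteins, 1 rose, 3 fell and 23 were not called after miR-365a, with a median of -0.01. The LIM protein gene Wtip fell by 1.17 ± 0.12, the ubiquitin ligase gene Siah2 by 0.90 ± 0.12 and the histone methyltransferase gene Ezh2 by 0.70 ± 0.16, while the kinase gene Lats2 rose by 0.95 ± 0.22. After miR-193b 0 of 27 were called (3 at an unadjusted p under 0.05 in limma, median -0.10). In the TGF-beta arm, Smad3, its main transducer in EMT, fell after miR-365a (-1.41 ± 0.16, adjusted p = 0.00526) and 13 of 14 were not called, with a median of 0.20. After miR-193b 0 of 14 were called in limma, 0 had an unadjusted p under 0.05 and the median was 0.04.

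Around Fn1, 1 of 12 fibronectin receptor and matrix assembly genes, the integrin gene Itgb5, rose after miR-365a (1.17 ± 0.13, adjusted p = 0.00486, median of the list 0.06). After miR-193b 0 of 12 were called (2 at an unadjusted p under 0.05 in limma, median 0.00). Around Vim, 2 of 14 other intermediate filament and linker genes fell after miR-365a, the lamin gene Lmnb1 (-2.21 ± 0.13) and the nestin gene Nes (-0.99 ± 0.15), with a median of -0.14. The stress keratin gene Krt16 rose after miR-193b (1.76 ± 0.20, adjusted p = 0.0196), with levels of 6.10 and 6.15, against 4.57 and 4.16 in NC, and 13 of 14 were not called (median 0.29).

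**Figure D4:**
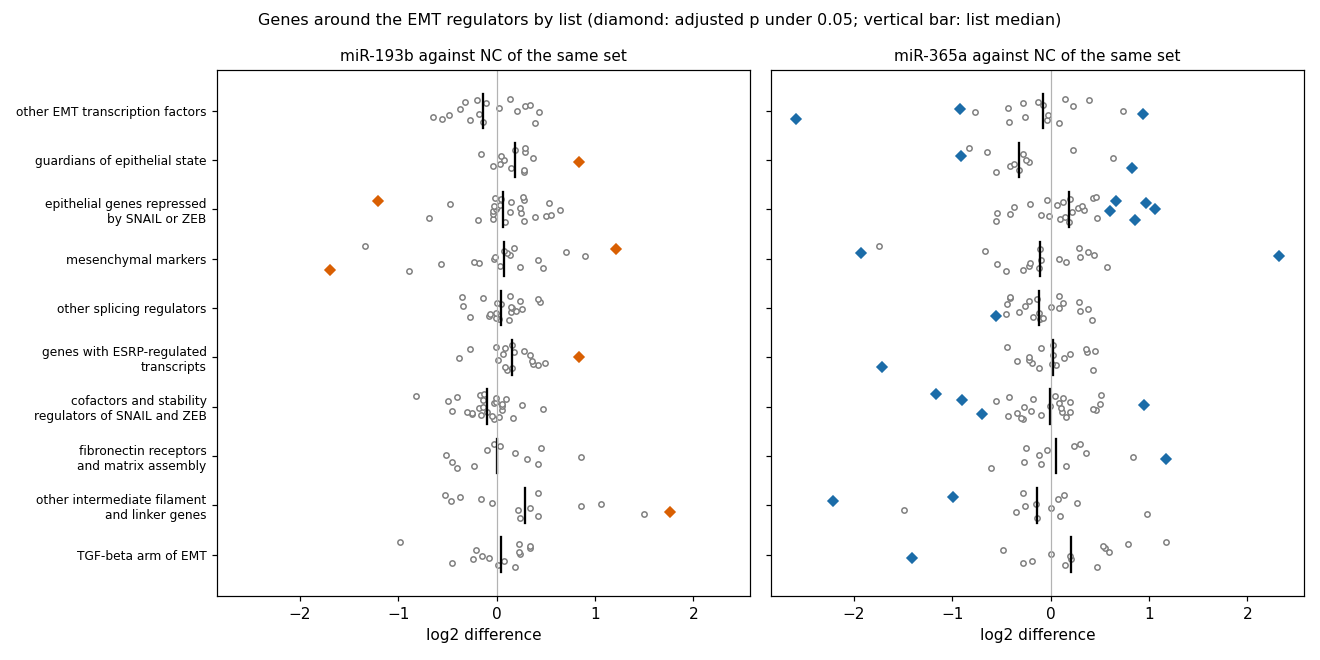
Log2 difference of each tested gene of the 10 lists (points) after miR-193b (left) and miR-365a (right), each against NC of the same set. Diamonds passed an adjusted p under 0.05 and the vertical bars are list medians, which lie between -0.33 and 0.29.

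For Esrp2 and Twist2 the genes most like each were sought among 14569 genes well above background on every array. Pearson's r was taken over the 8 arrays after subtracting the mean of each set. This is a description of arrays that share sets and slides. The closest to Esrp2 were Ninj2 (r = 0.998), Bbc3 (0.994) and Glt28d2 (0.990). Bbc3, encoding the apoptosis inducer PUMA, had levels of 1.86 and 1.52 after miR-365a, against 0.24 and -0.09 in NC, and of 1.66 and 2.03 after miR-193b, against 0.80 and 0.56 in NC. Closest to Twist2 were Galc (0.992), Pisd-ps3 (0.986) and Cbr1 (0.983). None is given for Zeb2, which was not well above background on 6 of the 8 arrays.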

How the data were processed

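The deposited scanner values are intensity in arbitrary units, which per the file headers are the processed signals of Feature Extraction 10.7.3.1, corrected for background and spatial trend on each array alone. The deposited table of log2 values, with near-equal medians of 7.04 to 7.05 on all arrays, was made with limma per the submitters' processing notes; its background correction is not given in the sources used here. It served as an alternative. Flags for spots well above background, per the file headers, are Feature Extraction's own.

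Control spots and spots flagged as outliers were left out, log2 processed signals were centred on each array's 75th percentile, and spots of a probe were averaged. Probes were named through RefSeq accessions (27508 of 39429), symbols (3544), synonyms (404) or the files (7973), and a gene was represented by its brightest probe. Genes entered the test where both arrays of some group in a set (4 such pairs) had the probe well above background. Effects were fitted with limma 3.58.1 (lmFit, eBayes; R 4.3.3), using every array and terms for set, miR-193b and miR-365a, leaving 4 residual degrees of freedom and a prior of 2.3. Benjamini-Hochberg adjustment ran over 17856 genes, or over 23282 probes for single probes. The fit was tested on simulated data. The members, the lists and the rule for named genes (all members, up to 4 called genes of a list by smallest p, the 3 genes most like a called member) were chosen with earlier results of these data known; Spint1 after miR-365a was named after its value was seen. A few genes picked by this rule are left out of the text. Whether a probe lies in an exon or UTR was not examined here. The 18 alternatives changed background correction, scaling, filter, variance model, slide, probes of a gene, the set fitted, or left out 1 array. Tables and plots were made with Python 3.11.15, numpy 2.4.6, pandas 2.3.3 and matplotlib 3.10.9.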

Additional observations from a re-analysis of the deposited data

How the results depend on the processing

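Of 521 tested values for single EMT genes under 18 alternatives, 458 kept direction and side of the threshold, 15 lost a call, 26 gained one and 22 changed sign; the cause was not tested. Of 20 untested values of miR-193b differences within slide 1 or across slides 2 and 3, 3 had the other sign (Snai1, Twist2 and Zeb2). The number of the 10 genes called after miR-365a (3) was 1 with no filter on dim probes, 5 with trended robust variance and 5 with slide as a random block, and 1 to 5 without 1 array. After miR-193b (0) it was 1, Esrp2, with normexp, the deposited values, probes well above background on all 8 arrays and trended robust variance, and 0 without any 1 array. For the difference between the effects (0) it was 1, Zeb2, with quantile normalization and with slide as a random block, and 0 to 1 without 1 array (1, Vim, without miR-365a replicate 2). Over all genes, calls after miR-193b (522) were 878 with normexp, 802 with deposited values, 11 with no filter, 890 with probes well above background on all 8 arrays, 0 in limma with its own set alone (3138 at an unadjusted p under 0.05), 1031 with trended robust variance, 171 with slide as a fixed block and 31 to 280 without 1 array. Calls after miR-365a (2829) were 1055 with no filter and 591 to 2852 without 1 array. For the difference (635) they were 1031 with normexp, 0 in limma with no filter (3489 at an unadjusted p under 0.05), 1072 with probes well above background on all 8 arrays, 1128 with trended robust variance, 132 and 1011 with slide as a fixed and random block, and 4 to 566 without 1 array. Signs changed for values that were not called. After miR-193b these were Twist2 with slide as a fixed block (-0.0096) and Zeb2 with quantile normalization (-0.0147). Slides 2 and 3 hold 1 array each, so with slide as a fixed block every miR-193b effect rests on slide 1 alone. The Twist2 value there is the one within slide 1. Without 1 array the miR-193b values ran from -0.4133 to 0.0921 for Snai1, from -0.0864 to 0.4184 for Snai2 and from -0.1914 to 0.3636 for Zeb2. Those after miR-365a ran from -0.2465 to 1.0063 for Zeb1, from -0.3153 to 4.4596 for Vim and from -0.8667 to 0.2431 for Fn1. For the difference the signs of Twist1 with normexp (0.0007) and deposited values (0.0610) and of Fn1 with slide as a fixed block (-0.0813) changed, and without 1 array the values ran from -0.6281 to 0.1141 for Twist1, from -0.5373 to 0.5724 for Fn1, from -0.0212 to 0.1450 for Esrp1 and from -0.0022 to 0.2297 for Esrp2. No paired analysis was possible because the labels give the arrays no shared replicate numbers. Zeb1, Zeb2 and Vim were not well above background on every array, and for Zeb2 the size of the difference depended on the background correction.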
